A study of Mus musculus with 18 samples.

Results

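The kidneys of mice in the HS_AOS_FMT group were set against those of the HS group, which is 6 of the 18 libraries of the series, 3 in each group. The genes followed are those that reached at least 1 FPKM in at least 3 of these 6 libraries, 11906 of the 19545 genes in the table. FPKM, fragments per kilobase of transcript scaled to the mapped fragments of a library, is a level corrected for gene length and depth. All mice were of the outbred ICR stock and 10 weeks old, and RNA was taken from whole kidney that had been snap frozen. Every group compared here shares a diet rich in fat together with streptozotocin (STZ), which destroys the insulin-producing beta cells, and HS had nothing further. HS_AOS_FMT carries in addition the label AOS at 10 mg/kg with FMT, a transplant of gut microbiota in faeces. The labels neither spell out AOS nor say whether it went to the donors or to the recipients of the transplant. A further pair of groups of 3 serve as references: HS_control_FMT received a transplant labelled control, and HS_AOS was given AOS at 10 mg/kg with no transplant in its label. The remaining groups, control and AOS, had neither the diet nor STZ; they entered the shared estimate of the spread, and a few control values are given beside results. The comparison asks how kidneys of the group with the AOS-labelled transplant differ from those with the diet and STZ alone. The labels do not tell whether the libraries of a group are different animals. The p-values therefore speak of the spread between libraries, which may be technical.

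Several systems that the kidney is known for come up below. Its cells run a circadian clock in which the activators CLOCK, NPAS2 and BMAL1 (encoded by Arntl) bind short E-box sequences and switch on the Per, Cry and Nr1d repressors, which in turn shut the activators down, while the output factors DBP, TEF and HLF carry the rhythm to genes with D-box sequences. Proximal tubule cells reabsorb most of the filtered sodium, bicarbonate and amino acids, with the sodium/hydrogen exchanger encoded by Slc9a3 at the centre. They burn fatty acids under the nuclear receptor PPARA, and they clear heme with the inducible heme oxygenase encoded by Hmox1.

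The libraries were of kidney: the proximal tubule marker Slc34a1, a phosphate transporter, lay between 2177 and 2939 FPKM in the 6 libraries, and the testis markers Prm1 and Tnp2 were listed at 0 in all of them. Tissue next to the kidney was present in some. The 16 adrenal markers summed to 746 FPKM in HS 3, 504 in HS_AOS_FMT 2 and 107 in HS_AOS_FMT 3, against 47.2, 52.0 and 47.9 in HS 1, HS 2 and HS_AOS_FMT 1. The 13 fat markers followed the same libraries, with sums of 1901, 1363 and 953 FPKM in those 3 and 179 to 398 in the others. The brown fat gene Ucp1 was at 42.5, 129 and 67.2 FPKM in those 3, listed at 0 in HS 2 and at 0.57 in HS 1. Outside the pair of groups, control 3 stood apart: its highest correlation with any other library, across genes, was 0.966, against 0.983 or more for each of the other libraries. The depth is not given; the spacing of the lowest values would fit between 8.7 and 12.5 M reads a library if 1 step were 1 read, which was not established.

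**Figure D1:**
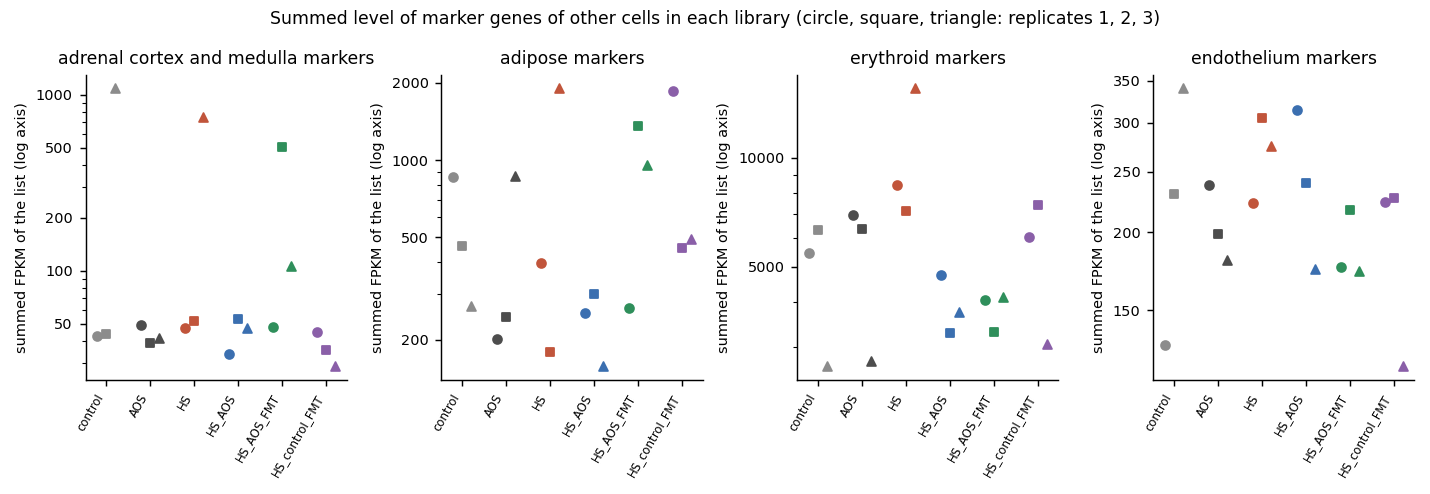
Summed FPKM (log axis) of the markers of adrenal gland, fat, red cells and endothelium in each of the 18 libraries, by group, with circles, squares and triangles for replicates 1, 2 and 3. HS 3 and HS_AOS_FMT 2 carry the highest adrenal sums of their groups (746 and 504 FPKM), and every HS library lies above every HS_AOS_FMT library in the red cell sum.

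Between HS_AOS_FMT and HS 129 genes passed the test (adjusted p under 0.05, limma), 57 higher and 72 lower in HS_AOS_FMT, which is 1.08% of the genes tested, 0.479% in the higher and 0.605% in the lower direction. At an unadjusted p under 0.05 there were 2219 genes, 18.6% of those tested, 9.78% higher and 8.86% lower. The 3 values of one group lay wholly above or below those of the other in 30.2% of all tested genes, 16.2% higher and 14.0% lower in HS_AOS_FMT. The median difference over all tested genes was 0.01 on the log2 scale. Among the 129, Nrxn2 (lower) and Ptchd1 (higher) passed the level filter through 1 group only. The count leaned on single libraries: it was 96 without HS 1, 71 without HS_AOS_FMT 1, 2 without HS 2 (Zkscan7 and Tmem109), and 0 without HS 3, HS_AOS_FMT 2 or HS_AOS_FMT 3, where 1595, 1568 and 1615 genes remained at an unadjusted p under 0.05. It was 641 when control 3 alone was left out of the fit (5.38% of genes, 2.67% higher and 2.71% lower), and 84 when the fit held these 6 libraries alone (0.706%, 0.294% higher and 0.412% lower). It was 18 after the trend of each library with transcript length and GC content had been removed (0.153%, 0.11% higher and 0.0424% lower). With control 3, HS 3 and HS_AOS_FMT 2 left out together 1 gene passed, Pzp, an alpha-macroglobulin (log2 1.52, adjusted p = 0.00526), which was not among the 129. Genes named outside the rule given in the methods, Nrxn2, Ptchd1, Tmem109 and Pzp among them, were chosen after their values were seen.

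Clock genes lay on both sides. Of 19 tested members of the core clock list 1 passed, Rora, and of 7 tested clock output genes 1 passed, Hlf, against the 1.08% of all genes. The median difference was 0.42 on the log2 scale over the core clock, with 12 members above 0 and 7 below, and 0.65 over the output genes, with 6 above and 1 below, against 0.01 over all genes. In the core clock 8 of 19 genes lay higher in HS_AOS_FMT with no overlap between the groups and 2 lay lower. Of the 7 output genes 5 lay higher and 1 lower. Over all tested genes the shares were 16.2% higher and 14.0% lower, so the lower counts here lie near that share. The core clock median was 0.20 with the length and GC trend removed and 0.26 without control 3, HS 3 and HS_AOS_FMT 2, and 0 core clock genes passed in either.

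Rora encodes a nuclear receptor that activates Arntl and spans 68653404 to 69388246 on chromosome 9 (GRCm38, as for all positions here). It stood at 5.68, 5.09 and 5 FPKM in HS 1, 2 and 3 and at 6.92, 7.94 and 7.21 in HS_AOS_FMT 1, 2 and 3. All 3 values after the transplant lay above those of HS, and Rora rose by 0.42 ± 0.09 (SE) on the log2 scale (adjusted p = 0.0463). Hlf, the output factor on chromosome 11 (90336535 to 90390917), stood at 23.6, 21.4 and 18.5 FPKM in HS and at 33.6, 39.5 and 34.9 in HS_AOS_FMT. The groups again did not overlap, and Hlf rose by 0.74 ± 0.12 (adjusted p = 0.0199). After removal of the length and GC trend neither passed (Rora 0.20, adjusted p = 0.347, and Hlf 0.59, adjusted p = 0.105). Rora also lost its call whichever of the 6 libraries was left out (adjusted p from 0.0541 to 0.185). For Hlf these adjusted p-values ran from 0.0222 to 0.116.

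Several other clock genes differed by more than Rora but did not pass. Those given here were chosen after their values were seen. Dbp, the D-box activator, was at 11.2, 12.2 and 7.33 FPKM in HS and at 123, 85.5 and 65.2 in HS_AOS_FMT (log2 difference 3.02 ± 0.87, adjusted p = 0.0954). Ciart, a repressor of CLOCK and BMAL1, was at 0.97, 1.47 and 1.38 FPKM in HS and at 18.4, 10.2 and 11.1 in HS_AOS_FMT (2.61 ± 0.78, adjusted p = 0.102). Per3, of the Period repressors, was at 1.60, 2.36 and 1.5 FPKM against 7.59, 8.26 and 6.62 (1.60 ± 0.41, adjusted p = 0.0648). In none of the 3 did the groups come near each other. Nr1d2, which encodes a heme-binding repressor of Arntl, was at 13.6, 14.7 and 13.5 FPKM in HS and at 34.6, 34.3 and 32.1 in HS_AOS_FMT (1.22 ± 0.33, adjusted p = 0.081). Tef, a partner of Dbp, was at 51.7, 53.6 and 43.3 FPKM against 116, 99.9 and 103 (1.09 ± 0.27, adjusted p = 0.0586). The activators lay on the other side. Arntl was at 8.18, 8.46 and 8.93 FPKM in HS and at 2.01, 3.40 and 2.06 in HS_AOS_FMT (-1.47 ± 0.48, adjusted p = 0.126). Npas2 was at 4.70, 5.05 and 5.30 FPKM against 0.95, 1.79 and 1.29 (-1.37 ± 0.47, adjusted p = 0.137). Nfil3, which competes with Dbp for D-boxes, was at 5.29, 16.1 and 12.2 FPKM against 2.45, 3.67 and 4.22 (-1.36 ± 0.41, adjusted p = 0.101). In these 8 genes the groups did not overlap, with Arntl, Npas2 and Nfil3 low and the others high in HS_AOS_FMT.

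The promoters of Ciart, Tef and Per3 are shown as examples that hold the E-box or D-box letters that clock factors are known to bind. All 3 are genes whose groups did not overlap. Cry1 and Per1 hold an E-box too but overlapped between the groups, and their promoters are not shown. The promoters shown are 300 bases long, from 250 before to 50 after the RefSeq start site on GRCm38.p6. They are read 5′ to 3′ on the strand of the gene, with the element in capitals. For Ciart (chr3:95882179-95882478, minus strand) the capitals mark the E-box CACGTG, which reads the same on both strands and occurs 3 times, starting at -116, -58 and -44 from the start site. For Tef (the second of its listed promoters, chr15:81811164-81811463, plus strand) they mark 1 E-box, at -138, and the first, not shown, holds 1 at -127. For Per3 (chr4:151044616-151044915, minus strand) they mark the D-box TTATGTAA, searched on both strands, at -205 and -158.
Ciart: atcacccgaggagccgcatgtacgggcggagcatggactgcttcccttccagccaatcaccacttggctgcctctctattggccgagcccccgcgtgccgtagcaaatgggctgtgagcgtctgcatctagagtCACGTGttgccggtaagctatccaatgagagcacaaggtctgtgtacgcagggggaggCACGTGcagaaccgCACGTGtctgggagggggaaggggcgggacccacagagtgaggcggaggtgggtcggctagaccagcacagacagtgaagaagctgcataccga
Tef: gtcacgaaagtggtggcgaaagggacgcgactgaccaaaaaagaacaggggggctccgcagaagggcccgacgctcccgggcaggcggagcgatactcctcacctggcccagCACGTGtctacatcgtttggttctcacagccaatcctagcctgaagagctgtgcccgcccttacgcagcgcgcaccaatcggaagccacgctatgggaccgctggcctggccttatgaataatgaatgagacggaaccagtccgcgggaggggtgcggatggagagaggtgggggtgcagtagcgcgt
Per3: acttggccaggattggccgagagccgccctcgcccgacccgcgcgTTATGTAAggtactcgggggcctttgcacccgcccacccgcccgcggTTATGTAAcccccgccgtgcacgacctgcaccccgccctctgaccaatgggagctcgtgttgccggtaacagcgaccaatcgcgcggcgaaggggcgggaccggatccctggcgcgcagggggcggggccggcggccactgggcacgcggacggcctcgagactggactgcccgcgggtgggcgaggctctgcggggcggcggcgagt
An E-box stood in the window of 4 of the 14 core clock genes with a listed promoter (Bhlhe41, Ciart, Cry1 and Per1) and of 1 of 6 output genes (Tef), against 11.8% of the 9415 tested genes with a promoter and 7.15% of all 32851 promoters. The D-box was found in 1 of the 14 core clock genes, Per3, against 0.68% of tested genes and 0.938% of all promoters. These matches describe letters in a window and were not tied to binding.

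How far the clock genes pass depended on which libraries set the spread. In control 3 Ciart was at 18 FPKM and Arntl at 2.71, whereas control 1 and 2 had Ciart at 0.33 and 0.44 and Arntl at 12.5 and 10.1. With control 3 out of the fit 7 of the 19 core clock genes passed, Per3, Nr1d2, Ciart, Cry2 and Rora higher and Arntl and Npas2 lower, with adjusted p-values between 0.00637 (Nr1d2) and 0.0449 (Arntl). Of the 7 output genes 5 then passed, Dbp, Tef, Hlf and Wee1 higher and Nfil3 lower. Over all tested genes 5.38% passed in that fit, against 1.08% with control 3 in it. With the 6 libraries alone in the fit 6 core clock genes passed (Per3, Nr1d2, Ciart, Cry2, Arntl and Npas2) and 4 output genes (Dbp, Tef, Hlf and Usp2). The share over all tested genes was then 0.706%. Other members overlapped: Clock itself was at 7.20, 7.31 and 7.13 FPKM in HS and at 5.63, 6.76 and 7.43 in HS_AOS_FMT (-0.12, adjusted p = 0.703), and Cry1 was alike (0.86, 1.55 and 1.96 against 0.98, 1.70 and 1.09 FPKM; -0.11, adjusted p = 0.821). The repressors Per1 and Nr1d1 overlapped as well, at 3.68, 8.43 and 5.33 against 7.88, 9.73 and 13.0 FPKM and at 34.4, 25.5 and 21.4 against 41.9, 39.1 and 30.5. The labels give no hour of tissue collection, so the treatment of a group and the hour at which it was collected cannot be told apart.

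Against HS_control_FMT 0 core clock genes passed in limma (1 higher and 1 lower had an unadjusted p under 0.05) and 2 output genes did, Hlf and Nfil3. Over all tested genes 4.14% passed in that comparison. At an unadjusted p under 0.05 in limma 15.5% of all genes were higher and 4.82% lower. Rora was at 9.73, 8.79 and 8.53 FPKM in HS_control_FMT, above every HS_AOS_FMT library, a difference of -0.26 that did not pass (adjusted p = 0.123). Against HS_AOS 0 clock genes passed in limma, and 0 did so at an unadjusted p under 0.05, against 5.22% of all genes. Dbp was at 46.3, 49.0 and 74.3 FPKM in HS_control_FMT and at 166, 44.4 and 40.1 in HS_AOS. Its difference from HS_AOS_FMT had 95% intervals of -1.21 to 2.54 and -1.47 to 2.27 on the log2 scale (adjusted p = 0.723 and 0.997). These intervals are wide enough to hold a difference of several fold either way. Hlf was at 23.7, 23.9 and 27.0 FPKM in HS_control_FMT, all below HS_AOS_FMT, and was higher in HS_AOS_FMT by 0.52 (95% interval 0.25 to 0.78, adjusted p = 0.0325). Nfil3 was at 14.1, 15.2 and 7.53 FPKM there, all above HS_AOS_FMT, and was lower in HS_AOS_FMT by -1.54 (95% interval -2.41 to -0.68, adjusted p = 0.0455).

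**Figure D2:**
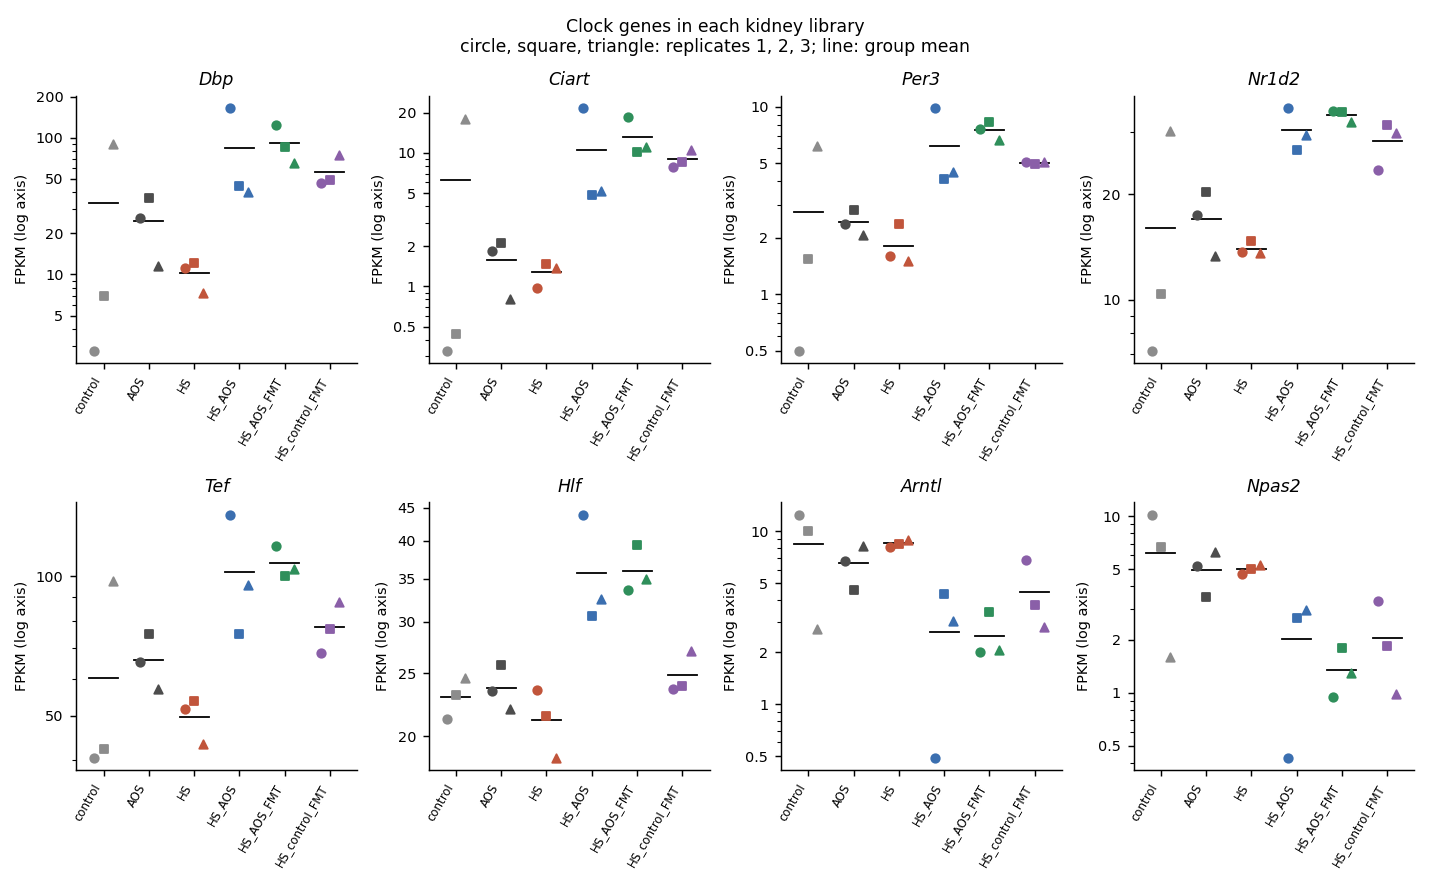
FPKM (log axis) of 8 clock genes in each of the 18 libraries, by group, with circles, squares and triangles for replicates 1, 2 and 3 and a line at the group mean. Dbp, Ciart, Per3, Nr1d2, Tef and Hlf lie higher in all 3 HS_AOS_FMT libraries than in all 3 HS libraries, Arntl and Npas2 lie lower, and control 3 sits apart from control 1 and 2 in all but Hlf.

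Immediate early genes, which are switched on rapidly by growth factors and calcium, lay mostly higher in HS_AOS_FMT than in HS. Of 22 tested members 1 passed, Fos, against 1.08% of all genes. Of the 22, 17 lay above 0, and the list median was 0.43 on the log2 scale. Against HS_control_FMT the median was -0.01, with 11 members above and 11 below 0. There 1 passed in each direction, against 3.06% higher and 1.08% lower over all genes. Fos encodes a subunit of the AP-1 transcription factor (chromosome 12, 85473890 to 85477274). It stood at 0.88, 1.00 and 1.08 FPKM in HS and at 6.92, 3.22 and 10.6 in HS_AOS_FMT. Every HS_AOS_FMT library lay above every HS library although they differed among themselves, and Fos rose by 1.88 ± 0.40 (adjusted p = 0.04, and 0.0539 with the length and GC trend removed), with group means of 6.91 and 0.987 FPKM. Its call was lost whichever of the 6 libraries was left out (adjusted p from 0.0713 to 0.175). Jun, which encodes the partner of FOS (chromosome 4, 95049036 to 95052222), was at 14.0, 26.8 and 21.4 FPKM in HS and at 55.4, 37.1 and 48.5 in HS_AOS_FMT (1.17 ± 0.30, adjusted p = 0.0658). Without control 3 in the fit Jun passed (adjusted p = 0.0298), as did Zfp36 and Dusp1, which encode an RNA-destabilising protein and a phosphatase of MAP kinases.

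Egr1 and Atf3 did not pass and varied widely within HS_AOS_FMT. Egr1, a zinc finger factor, was at 17.7, 7.03 and 53 FPKM in HS_AOS_FMT against 1.77, 4.49 and 3.34 in HS (2.31 ± 0.76, adjusted p = 0.13). Atf3, which responds to stress, was at 5.48, 2.60 and 27.7 FPKM against 2.62, 3.78 and 3.85 (1.00 ± 0.61, adjusted p = 0.406). HS_AOS_FMT 3 was the highest library in both, and the list median was 0.14 without it and 0.66 without HS_AOS_FMT 2. Jun is given against both references as well. HS_control_FMT had 23.6, 21.1 and 15.1 FPKM and HS_AOS 12.1, 9.91 and 10.1, so all 3 HS_AOS_FMT values exceeded all 6. Jun was higher than in HS_control_FMT by 1.20 (95% interval 0.56 to 1.84, adjusted p = 0.0382) and than in HS_AOS by 2.02 (1.38 to 2.66, adjusted p = 0.084). The call against HS_control_FMT was lost whichever library of the 2 groups was left out (adjusted p from 0.0655 to 0.133). The difference from HS_AOS passed when the length and GC trend was removed (adjusted p = 0.025), with quantile normalization (adjusted p = 0.0194), without control 3 in the fit (0.0427) and with the compared groups alone (0.00569).

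Heme oxygenase fell. Hmox1 (chromosome 8, 75093618 to 75100593) degrades heme to biliverdin, iron and carbon monoxide and is a classic marker of oxidative and heme stress. It stood at 56.1, 56.6 and 66.6 FPKM in HS and at 35.3, 30.6 and 34.1 in HS_AOS_FMT. The groups were well apart, and Hmox1 fell by 0.82 ± 0.16 on the log2 scale (adjusted p = 0.0358), to 0.558 of the HS mean. The HS_AOS_FMT level overlapped that of the control group (33.7, 38.7 and 39.3 FPKM) and of HS_AOS (28.8, 38.0 and 47.2). In HS_control_FMT Hmox1 was at 199, 148 and 139 FPKM, above all libraries of HS and HS_AOS_FMT, and it was lower in HS_AOS_FMT by 2.23 (95% interval -2.57 to -1.89, adjusted p = 5.24e-06). That last difference passed with any 1 library left out, with log2 values from -2.33 to -2.07. The difference from HS kept its call without HS 1 (adjusted p = 0.0442) and lost it without any other of the 6 libraries, with log2 values from -0.86 to -0.74. It was -0.72 with the length and GC trend removed and did not pass (adjusted p = 0.121).

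Hmox1 was the 1 of 16 tested genes of heme and iron handling that passed, against 1.08% of all genes. The list median was -0.12. Ftl1 and Fth1, the ferritin chains that store the iron, were at 5273 ± 728 and 5050 ± 207 FPKM (SD, n = 3) in HS and at 3948 ± 905 and 4458 ± 177 in HS_AOS_FMT (adjusted p = 0.12 and 0.235). Hmox2, the constitutive heme oxygenase, was at 87.6 ± 2.60 FPKM against 76.7 ± 4.22 (adjusted p = 0.128). Blvra, which reduces biliverdin, was at 48.9 ± 3.32 FPKM against 58.9 ± 1.35 (0.27, adjusted p = 0.209). Fech, which inserts iron into protoporphyrin to form heme, was at 49.3 ± 2.35 FPKM against 58.8 ± 2.13 (0.25, adjusted p = 0.125). Blvra and Fech therefore lay on the opposite side from Hmox1, and none of these 5 genes passed. Red cell transcripts were lower in the same libraries: the 9 red cell markers summed to between 7113 and 15580 FPKM in HS and to between 3308 and 4134 in HS_AOS_FMT, and the part of blood in the Hmox1 difference was not tested. Of 22 antioxidant genes 0 passed in limma, and 4 lower genes had an unadjusted p under 0.05, against 8.86% of all genes. Of the 22, 18 lay below 0, and the median was -0.15 (-0.06 with quantile normalization). Gpx4, which guards membranes against lipid peroxides, was at 1293, 1119 and 1171 FPKM in HS and at 933, 830 and 853 in HS_AOS_FMT (-0.45 ± 0.11, adjusted p = 0.0573). Gpx1 overlapped (2267 ± 135 against 1902 ± 237 FPKM, adjusted p = 0.192), and the extracellular superoxide dismutase Sod3 did not (421 ± 38.5 against 355 ± 11.9, adjusted p = 0.163).

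Transporters of the proximal tubule lay mostly higher. Of 24 tested members 20 were above 0, the median was 0.19, 8 were higher and 1 lower with no overlap (16.2% and 14.0% of all genes), and 1 passed, higher (0.479% of all genes). Slc9a3, the apical sodium/hydrogen exchanger (chromosome 13, 74086255 to 74169442), stood at 25.7, 26.6 and 22.2 FPKM in HS and at 40.8, 38.4 and 37.0 in HS_AOS_FMT. It rose by 0.62 ± 0.11 (adjusted p = 0.0199), and it was among the 10 of the 129 genes that also passed with the length and GC trend removed (0.55, adjusted p = 0.0275). It was as high in HS_AOS (38.9, 35.4 and 36.4 FPKM) and lower in HS_control_FMT (25.3, 24.3 and 23.4 FPKM), where all 3 libraries lay below HS_AOS_FMT by 0.65 (95% interval 0.42 to 0.87, adjusted p = 0.00578). Slc6a19, the main transporter of neutral amino acids, was at 58.0, 65.5 and 56.2 FPKM in HS, at 155, 104 and 84.7 in HS_AOS_FMT and at 44.4, 51.9 and 50.5 in HS_control_FMT. Its difference from HS did not pass (0.88 ± 0.30, adjusted p = 0.134), and it was higher than in HS_control_FMT by 1.17 (95% interval 0.53 to 1.81, adjusted p = 0.0414), a call kept without HS_AOS_FMT 3 (adjusted p = 0.0457) and lost without any other library of the 2 groups. Slc7a9 and Slc3a1, the subunits of the cystine carrier, were at 56.1 ± 6.03 and 212 ± 2.12 FPKM in HS and at 81.7 ± 13.7 and 258 ± 13.1 in HS_AOS_FMT (0.53 and 0.28, adjusted p = 0.181 and 0.102). Slc4a4, the basolateral bicarbonate exit, and Lrp2, the megalin receptor of protein uptake, did not overlap either (110 ± 5.03 against 134 ± 8.76, and 125 ± 5.55 against 152 ± 6.16 FPKM; adjusted p = 0.209 and 0.298).

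Elsewhere in the nephron 9 of 11 podocyte genes lay above 0 (median 0.07) and 9 of 10 genes of the collecting duct principal cell below 0 (median -0.22). Without control 3, HS 3 and HS_AOS_FMT 2 the podocyte median was 0.002 with 6 above 0. In the thick ascending limb 8 of 10 genes lay below 0 (median -0.05), and of the intercalated cell 7 of 12 did (median -0.01). Of 13 tested genes of the distal convoluted and connecting tubule 0 passed in limma. An unadjusted p under 0.05 was found in 1 higher and 3 lower genes, against 9.78% and 8.86% of all genes. Of the 13, 11 were below 0, with a median of -0.18. That median was -0.12 without HS 2 and -0.28 without HS 3. The calcium-binding proteins of this segment stood out. Calb1 was at 175, 170 and 137 FPKM in HS and at 105, 97.3 and 85.8 in HS_AOS_FMT (-0.74 ± 0.25, adjusted p = 0.142), and S100g at 423, 764 and 668 against 385, 252 and 259 (-1.03 ± 0.46, adjusted p = 0.245). Neither gene overlapped between the groups. Ren1, which encodes renin, was at 78.4, 38.5 and 26.2 FPKM in HS and at 61.3, 69.6 and 80.7 in HS_AOS_FMT, and these ranges overlapped (0.69 ± 0.32, adjusted p = 0.264). The Ren1 difference was 1.12 without HS 1 and 0.34 without HS 3.

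Ppara rose. This gene (chromosome 15, 85734910 to 85806851) encodes the receptor that switches on fatty acid oxidation, and it stood at 12.8, 9.96 and 12.8 FPKM in HS and at 19.2, 20.4 and 18.9 in HS_AOS_FMT. The groups did not overlap and the difference was 0.68 ± 0.14 (adjusted p = 0.0394, and 0.66 with adjusted p = 0.0479 with the length and GC trend removed). The call was lost whichever of the 6 libraries was left out (adjusted p from 0.0509 to 0.142). Both references were as high, with 24.7, 19.3 and 18.5 FPKM in HS_control_FMT and 25.9, 20.5 and 18.1 in HS_AOS. Of the 26 tested genes of fatty acid oxidation Ppara was the 1 that passed, against 1.08% of all genes. The list median was 0.01, with 14 above 0 and 12 below. This split rested on single libraries: without HS 1 the median was 0.21 with 23 above 0, and without HS 2 it was -0.15 with 19 below. Cpt1a, the carnitine transferase that brings fatty acids into mitochondria, was at 92.6 ± 23.3 FPKM in HS and 122 ± 11 in HS_AOS_FMT, with overlap (adjusted p = 0.178). Cyp4a14 and Cyp4a10, omega-hydroxylases that PPARA induces, did not follow. Cyp4a14 was at 68.8, 6.25 and 6.41 FPKM in HS and at 5.66, 2.55 and 2.39 in HS_AOS_FMT (adjusted p = 0.428), with HS 1 far above the rest. In HS_AOS it was at 57.6, 67.4 and 60.3 FPKM and Cyp4a10 at 420, 405 and 279, against 109, 104 and 120 for Cyp4a10 in HS_AOS_FMT. Both were lower in HS_AOS_FMT than in HS_AOS when those groups were fitted alone (Cyp4a14 -3.86 with adjusted p = 0.00569, Cyp4a10 -1.70 with adjusted p = 0.0204) and not in the fit over 18 libraries (adjusted p = 0.718 and 0.933).

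Of 20 genes of fatty acid and triglyceride synthesis 18 lay above 0 with a median of 0.12, and 0 passed in limma. At an unadjusted p under 0.05 there were 4, all higher, against 9.78% of all genes. Without HS 1 the median was 0.07 with 11 above 0, without HS_AOS_FMT 2 it was 0.04 with 12, without HS 3 it was 0.30 with 18, and without HS_AOS_FMT 1 it was 0.26 with 20. Lpin1, a phosphatidate phosphatase, was at 8.98, 6.95 and 8.43 FPKM in HS and at 12, 16.1 and 15.0 in HS_AOS_FMT (0.75 ± 0.22, adjusted p = 0.0984). Mttp, which loads lipid onto lipoproteins, and Dgat2, the last step of triglyceride synthesis, were at 5.42 ± 0.766 and 77.5 ± 8.18 FPKM against 7.58 ± 0.282 and 99.5 ± 8.74 (0.43 and 0.36, adjusted p = 0.128 for both). None of these 3 overlapped. Igfbp1, a target of FOXO1 that insulin represses, was at 1.15, 0.48 and 1.26 FPKM in HS and at 7.66, 4.75 and 2.82 in HS_AOS_FMT (1.58 ± 0.57, adjusted p = 0.157), and Irs2, an insulin receptor substrate, at 1.99 ± 0.394 against 3.8 ± 0.594 (adjusted p = 0.291). Of 15 glycolysis genes 12 lay below 0, 5 of them at an unadjusted p under 0.05 (8.86% of all genes), and 0 passed in limma. Pgam1 was at 337, 344 and 322 FPKM in HS and at 278, 285 and 267 in HS_AOS_FMT (-0.27 ± 0.07, adjusted p = 0.0538), and Gapdh at 4395 ± 281 against 3322 ± 360 (-0.41 ± 0.11, adjusted p = 0.0827).

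The largest named rises, after Fos, were in genes of diverse roles. Rnase4, a secreted ribonuclease (chromosome 14, 51091077 to 51106151), stood at 14.8, 37.2 and 30.9 FPKM in HS and at 106, 86.9 and 57.2 in HS_AOS_FMT and rose by 1.61 ± 0.32 (adjusted p = 0.0382, and 0.087 with the length and GC trend removed). Upp2, a uridine phosphorylase, rose from 6.67 ± 2.79 to 16.3 ± 2.31 FPKM (1.23 ± 0.27, adjusted p = 0.0413). Tnfrsf21, which encodes death receptor 6 (chromosome 17, 43016555 to 43089188), stood at 30.8, 25.6 and 34.8 FPKM in HS and at 57.2, 64.3 and 70.3 in HS_AOS_FMT and rose by 1.05 ± 0.18 (adjusted p = 0.0199). In each of the 3 the groups did not overlap. Rnase4 and Upp2 lost their calls whichever of the 6 libraries was left out (lowest adjusted p 0.0614 and 0.064). Tnfrsf21 was the 1 of 16 tested chemokine and NF-kB genes that passed, against 1.08% of all genes. It kept its call with the length and GC trend removed (1.04, adjusted p = 0.0203), and the control transplant had it as high (69.4, 52.1 and 63.5 FPKM).

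The acetyltransferase gene Nat2 (chromosome 8, 67494875 to 67502644) had one of the smallest p-values. It stood at 13.6, 10.7 and 12.8 FPKM in HS and at 20.7, 22.4 and 22.2 in HS_AOS_FMT and rose by 0.78 ± 0.11 (adjusted p = 0.0165, and 0.0203 with the length and GC trend removed). Zkscan7, a zinc finger gene, rose by the same amount at a low level, from 1.90 ± 0.25 to 3.96 ± 0.229 FPKM (adjusted p = 0.0165). Fzd5, a Wnt receptor, rose from 2.04 ± 0.61 to 4.12 ± 0.115 FPKM (0.77 ± 0.14, adjusted p = 0.024). Fnip2, which binds folliculin and takes part in nutrient sensing, rose from 11.5 ± 0.456 to 20.4 ± 3.40 FPKM, and Dhtkd1, a mitochondrial enzyme of lysine breakdown, from 11.5 ± 2.65 to 19.6 ± 1.31 (0.77 and 0.75, adjusted p = 0.0469 and 0.0394). Further rises were Tmtc4, an O-mannosyltransferase of the endoplasmic reticulum, from 4.53 ± 0.475 to 8.59 ± 1.18 FPKM, and Cit, the citron kinase of cell division, from 0.927 ± 0.225 to 2.21 ± 0.37 (0.79 and 0.74, adjusted p = 0.0463 and 0.0471). With the length and GC trend removed Upp2, Fnip2, Dhtkd1, Tmtc4 and Cit did not pass (adjusted p from 0.0747 for Cit to 0.203 for Tmtc4). Fmo2, a flavin-containing monooxygenase (chromosome 1, 162874317 to 162898758), stood at 74.9, 88.4 and 80.9 FPKM in HS and at 131, 136 and 104 in HS_AOS_FMT. It rose by 0.59 ± 0.12 (adjusted p = 0.0394) and was the 1 of 14 tested genes for handling of gut metabolites that passed (1.08% of all genes). With the trend removed it was at 0.46 (adjusted p = 0.125). Fmo2, Fnip2, Tmtc4 and Cit lost their calls whichever of the 6 libraries was left out (lowest adjusted p 0.0756, 0.0751, 0.0619 and 0.0837).

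**Figure D3:**
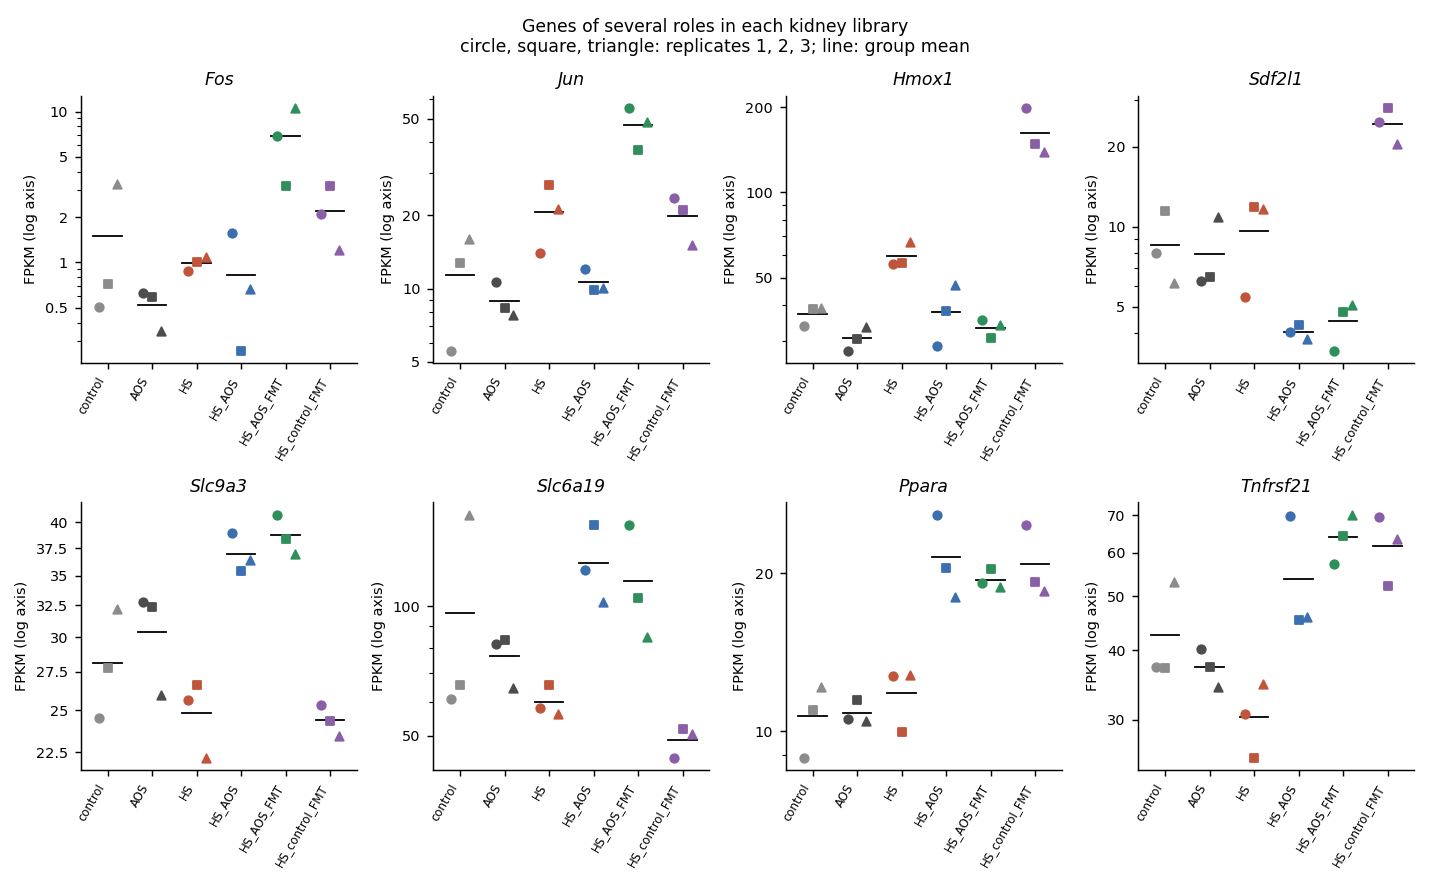
FPKM (log axis) of 8 genes in each of the 18 libraries, by group, with circles, squares and triangles for replicates 1, 2 and 3 and a line at the group mean. Fos, Jun, Slc9a3, Slc6a19, Ppara and Tnfrsf21 lie higher in all 3 HS_AOS_FMT libraries than in all 3 HS libraries and Hmox1 and Sdf2l1 lie lower, while HS_control_FMT is the highest group in Hmox1 (139 to 199 FPKM) and Sdf2l1.

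Of the genes that fell, Hmox1 aside, Ypel2, a small zinc-binding protein, stood at 10.1, 7.13 and 7.70 FPKM in HS and at 2.98, 4.18 and 3.05 in HS_AOS_FMT and fell by 1.08 ± 0.24 on the log2 scale (adjusted p = 0.0463). Gm4724, a predicted gene outside the naming rule, differed by more at a low level (5.29, 3.97 and 3.16 against 0.13, 0.00 and 1.44 FPKM, adjusted p = 0.0394). Palm3, a paralemmin, fell from 13.0 ± 2.86 to 6 ± 0.731 FPKM (-0.98 ± 0.20, adjusted p = 0.0394). Banp, a nuclear matrix protein that binds CpG-rich DNA, stood at 6.41, 12.3 and 8.30 FPKM in HS and at 3.61, 3.87 and 4.38 in HS_AOS_FMT (-0.97 ± 0.17, adjusted p = 0.0218, and -1.04 with adjusted p = 0.0229 with the trend removed). HS_control_FMT had Banp at 10.3, 13.1 and 9.78 FPKM, and the difference of HS_AOS_FMT from it was -1.28 (95% interval -1.64 to -0.91, adjusted p = 0.00329). Bcl7c, a subunit of SWI/SNF chromatin remodellers, fell from 36.8 ± 1.79 to 20.6 ± 0.862 FPKM (-0.81 ± 0.13, adjusted p = 0.0199). Adamtsl2, a secreted glycoprotein of the matrix, fell from 3.99 ± 0.701 to 2.13 ± 0.0874 FPKM, and Tmem101 and Hcfc1r1 fell from 7.23 ± 0.341 and 60 ± 2.19 to 4.34 ± 0.528 and 38.6 ± 0.576 FPKM. Another 4 encode parts of RNA or electron machinery. Lsm4 and Lsm7, of the ring that binds U6 RNA and decaying mRNA, fell from 72.8 ± 13.7 and 68.0 ± 5.38 to 45.6 ± 6.13 and 43.4 ± 3.32 FPKM. Ndufv3, a subunit of respiratory complex I, fell from 387 ± 30.2 to 250 ± 17.6 FPKM, and Fdx1l, a mitochondrial ferredoxin, from 49.5 ± 6.30 to 30.6 ± 4.59 (log2 -0.68 to -0.63 for these 4, adjusted p = 0.0394 to 0.0488). With the length and GC trend removed Banp kept its call, whereas Ypel2, Gm4724, Palm3, Bcl7c, Adamtsl2, Tmem101, Hcfc1r1, Lsm4, Lsm7, Ndufv3 and Fdx1l did not pass (adjusted p from 0.0864 for Ypel2 to 0.427 for Lsm4). Ypel2, Gm4724, Adamtsl2, Hcfc1r1, Lsm7 and Ndufv3 also lost their calls whichever of the 6 libraries was left out.

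The lower genes were short and rich in GC. The median length of the longest transcript was 1578 bases among the 72 lower genes, 4722 among the 57 higher and 3040 over all tested genes, and the median GC content was 57.1%, 45.5% and 50.3%. Over all tested genes the median difference went from -0.17 in the shortest of 5 equal length classes to 0.13 in the longest, and from 0.13 in the lowest of 5 classes of GC content to -0.15 in the highest. Of the 72 lower genes 45 lay in the shortest class and 44 in the class richest in GC. Each library's deviations leaned the same way: their rank correlation with GC content across genes was 0.224, 0.36 and 0.325 in HS and -0.0923, -0.162 and -0.448 in HS_AOS_FMT. That trend moves with the groups, so a change of short or GC-rich genes and a trend of the libraries cannot be told apart from these values. The same class medians against HS_control_FMT went from -0.03 to 0.14 with length and from 0.13 to 0.00 with GC content, and against HS_AOS they stayed between -0.03 and 0.03.

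**Figure D4:**
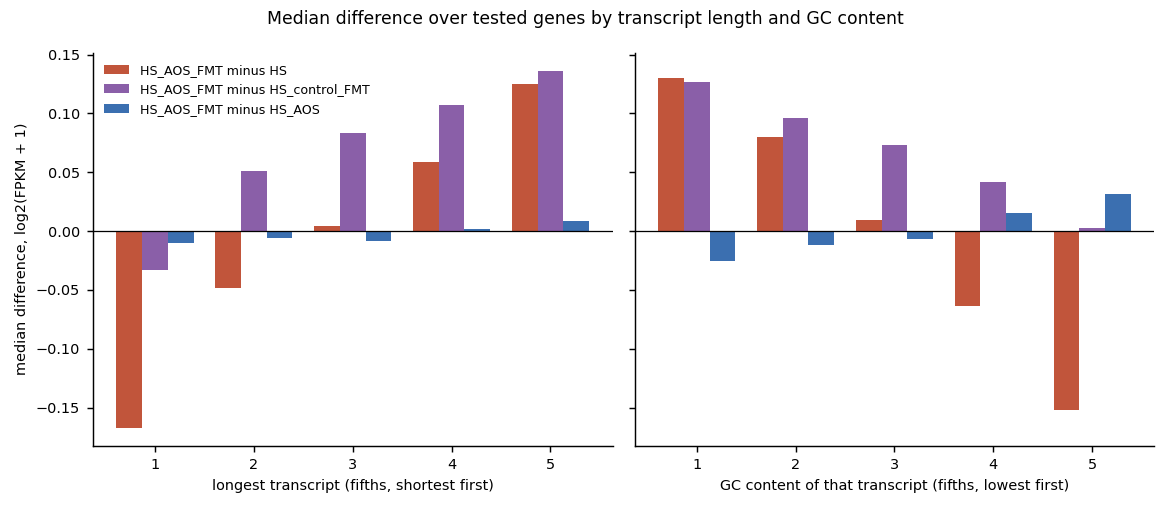
Median difference in log2(FPKM + 1) between HS_AOS_FMT and each of HS, HS_control_FMT and HS_AOS over the tested genes, in 5 equal classes by the length (left) and by the GC content (right) of the longest transcript. Against HS the bars run from -0.17 to 0.13 with length and from 0.13 to -0.15 with GC content, and against HS_AOS they stay near 0.

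Lists of short transcripts lay lower as blocks, with few or no calls. Of 81 genes for cytosolic ribosomal proteins 80 lay below 0, the exception being Rpl3, and 65 were lower with no overlap, against the 14.0% of all genes. The median was -0.29, 0 passed in limma and 24 lower genes had an unadjusted p under 0.05. These genes have a median length of 937 bases, and with the length and GC trend removed the median was -0.09 with 66 below 0. Of 75 nuclear-encoded subunits of the respiratory chain 70 lay below 0 and 53 were lower with no overlap. Of these genes 1 passed, Ndufv3, against 1.08% of all genes. Their median was -0.25, and -0.06 with the trend removed. With control 3 out of the fit 17 ribosomal and 18 respiratory chain genes passed, all lower, against 2.71% of all tested genes. The length and GC trend was not removed in that fit.

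Lists of blood and vessel cells had negative medians, with 0 calls in limma in each. Over all genes 14.0% were lower with no overlap and 8.86% were lower with an unadjusted p under 0.05, and several counts here lie near those shares. All 14 tested endothelial markers lay below 0 (median -0.31, 4 with no overlap, 1 at an unadjusted p under 0.05), as did all 16 interferon-stimulated genes (median -0.35, 5 with no overlap, 0 at an unadjusted p under 0.05), and 14 of 16 macrophage and monocyte genes (median -0.47, 3 with no overlap, 2 lower at an unadjusted p under 0.05). The macrophage median was -0.29 without HS 1 and -0.71 without HS 2, and the interferon median was -0.18 without HS 3 and -0.53 without HS 2. In whole tissue fewer cells of a type and less RNA per cell cannot be told apart. Plvap, of fenestrated endothelium, was at 62.2, 86.0 and 75.8 FPKM in HS and at 44.3, 51.9 and 38.6 in HS_AOS_FMT (-0.72 ± 0.35, adjusted p = 0.29), and Eng, which encodes endoglin, at 44.6 ± 5.93 against 28.3 ± 2.46 (adjusted p = 0.281). C1qb, of the complement protein C1q made by macrophages, was at 30.8, 13.8 and 28.1 FPKM against 11.4, 14.2 and 10.8 (adjusted p = 0.268), and Isg15, a ubiquitin-like protein induced by interferon, at 5.20, 5.36 and 13.6 against 2.50, 3.71 and 2.47 (adjusted p = 0.394). Plvap, Eng and Isg15 did not overlap, and C1qb did. The red cell list had a median of -1.03 over 8 tested genes, -0.61 without control 3, HS 3 and HS_AOS_FMT 2. Hba-a1, an alpha globin gene with a near-identical copy that can share its reads, was at 6857, 5942 and 12581 FPKM in HS and at 3636, 2985 and 4021 in HS_AOS_FMT (-1.18 ± 0.45, adjusted p = 0.175).

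**Figure D5:**
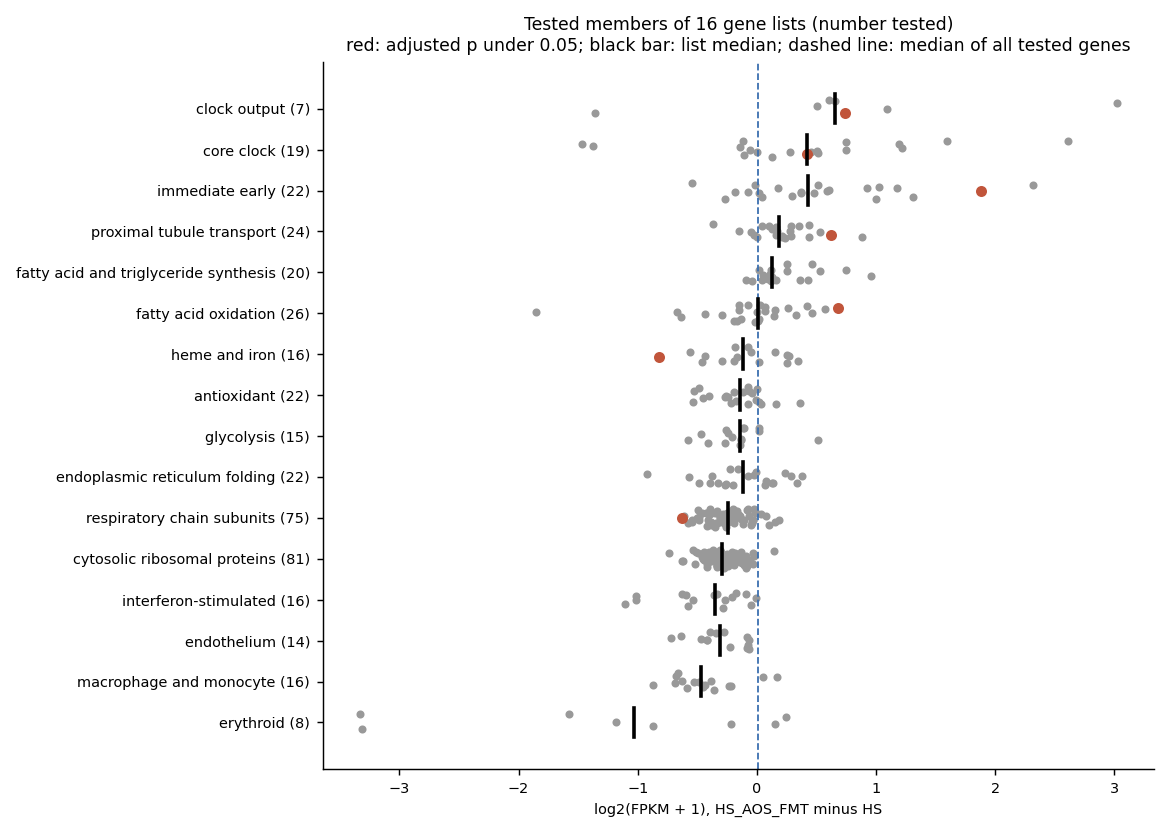
Log2 difference between HS_AOS_FMT and HS of each tested member of 16 gene lists, with red points for genes that passed (adjusted p under 0.05), black bars at the list medians and a dashed line at the median of all tested genes. The clock and immediate early lists spread to both sides with medians of 0.42 to 0.65, while the respiratory chain and ribosomal lists form tight clouds at -0.25 and -0.29.

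Against the control transplant the AOS-labelled transplant differed in more genes. There were 493 that passed, 364 higher and 129 lower in HS_AOS_FMT (4.14%, 3.06% and 1.08% of all tested), and 2425 at an unadjusted p under 0.05 (20.4%, 15.5% higher and 4.82% lower). The groups did not overlap in 29.9% of genes, 22.2% higher and 7.61% lower. The count was 64 without HS_AOS_FMT 2, 123 without HS_control_FMT 2, 141 without HS_AOS_FMT 1, 161 without HS_control_FMT 1, 210 without HS_control_FMT 3, and 266 without HS_AOS_FMT 3. It was 1144 without control 3 (9.61% of genes, 7.66% higher and 1.95% lower) and 211 with these groups alone (1.77%, 1.08% higher and 0.689% lower). The surplus of higher genes depended on the scaling: 154 were higher and 126 lower with quantile normalization, and 250 higher and 225 lower with the length and GC trend removed (4.03%, 2.12% and 1.91%). Because HS cancels in this difference, it tests whether the transplant groups differed unequally from HS. Any AOS given to the recipients would be part of it, as the labels do not say who received AOS.

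Genes for protein folding in the endoplasmic reticulum made up the largest block. Of 22 tested members 14 passed, all lower in HS_AOS_FMT, against 1.08% of all genes. The list median was -0.88, and 21 lay below 0. Against HS 0 of the 22 passed in limma, and the unadjusted p was under 0.05 in 5 lower and 1 higher genes. The shares over all genes were 8.86% and 9.78%. The list median against HS was -0.12. That median was -0.29 without HS 1, -0.02 without HS 3, -0.20 without HS_AOS_FMT 3 and 0.02 without control 3, HS 3 and HS_AOS_FMT 2. Sdf2l1, which assists the chaperone BiP (chromosome 16, 17130138 to 17132383), stood at 3.42, 4.78 and 5.07 FPKM in HS_AOS_FMT, at 24.8, 28.1 and 20.5 in HS_control_FMT and at 5.43, 11.9 and 11.7 in HS. It was lower than in HS_control_FMT by -2.23 (95% interval -2.80 to -1.66, adjusted p = 0.00126), and its difference from HS did not pass (-0.92 ± 0.27, adjusted p = 0.0944). Creld2, another stress-induced protein of this compartment, was at 19.4 ± 1.41 FPKM in HS_AOS_FMT, 28.1 ± 6.84 in HS and, by library, at 78.2, 92.7 and 74.8 in HS_control_FMT (-2.02, adjusted p = 0.000219). Chac1, a glutathione-degrading target of ATF4, was at 0.62, 0.80 and 1.03 FPKM against 5.12, 9.25 and 4.82 (-1.98, adjusted p = 0.00329), and Manf, a secreted survival factor, at 26.6 ± 3.32 against 89.6, 105 and 78.3 (-1.73, adjusted p = 0.00329). In all 4 the transplant groups did not overlap. HS_AOS_FMT lay below HS with no overlap in Sdf2l1 and Creld2, and overlapped HS in Chac1 and Manf, and none of these differences from HS passed. Dnajb9, a cochaperone of BiP, lay differently: it was at 31.3 ± 2.09 FPKM in HS, 39.7 ± 2.77 in HS_AOS_FMT and 72.4, 77.8 and 67.8 in HS_control_FMT (-0.86, adjusted p = 0.01). All 16 heat shock genes lay below 0 against HS_control_FMT, with a median of -0.89. In limma 11 had an unadjusted p under 0.05 and 4 of them passed, against 4.82% and 1.08% lower over all genes. Hspb1 was at 45.6, 42.1 and 68.8 FPKM in HS_AOS_FMT against 214, 239 and 134 (-1.88, adjusted p = 0.0317).

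Genes higher than in the control transplant included Slc35f3, a thiamine carrier, at 10.9, 10.5 and 8.28 FPKM in HS_AOS_FMT against 3.37, 4.59 and 3.02 (1.23, adjusted p = 0.00492). HS had 5.81, 5.26 and 4.57 FPKM, and the difference from HS just missed the threshold (0.81 ± 0.19, adjusted p = 0.0526, and 0.0313 with the length and GC trend removed). Afap1l2, an adaptor of the kinase SRC, was at 9.75, 11.6 and 10.2 FPKM in HS_AOS_FMT, at 8.76, 7.89 and 8.32 in HS and at 4.26, 4.45 and 4.38 in HS_control_FMT (1.10, adjusted p = 0.00126). Tbxas1, the thromboxane synthase, was at 9.42 ± 2.62 FPKM against 4, 5.44 and 2.18 (1.12, adjusted p = 0.0335). Nr3c1, the glucocorticoid receptor, was at 21.9 ± 1.34 FPKM in HS_AOS_FMT, 17.6 ± 0.52 in HS and 14.4, 16.9 and 14.3 in HS_control_FMT (0.50, adjusted p = 0.0186), and its target Fkbp5 was lower, at 28.7 ± 3.71 against 54.0, 36.5 and 43.5 (-0.61, adjusted p = 0.0477).

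Against AOS given without a transplant 0 genes passed in limma, with 622 at an unadjusted p under 0.05 (5.22% of those tested, 2.72% higher and 2.5% lower). The groups did not overlap in 11.5% of genes, 5.06% higher and 6.39% lower. Array weights, whose estimation stopped before converging, gave 60 genes. The other settings called between 0 and 3 genes: Jun, Fos, Elovl2, Cyp4a10 and Cyp4a14. Elovl2, which elongates polyunsaturated fatty acids, was at 10.2, 10.2 and 9.02 FPKM in HS_AOS_FMT and at 16.7, 19.6 and 17.8 in HS_AOS, with no overlap (-0.81, 95% interval -1.13 to -0.49, adjusted p = 0.249). Immediate early genes had a median difference of 0.89, with 20 of 22 above 0 and 13 at an unadjusted p under 0.05, all higher in HS_AOS_FMT. For the genes that rose or fell against HS the intervals were narrow in some cases and wide in others. The difference in Slc9a3 from HS_AOS lay between -0.16 and 0.29, in Hmox1 between -0.50 and 0.18, in Ppara between -0.42 and 0.18, and in Fos between 1.20 and 2.91 (adjusted p = 0.249).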

How the data were processed

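Kidney RNA was sequenced in 18 libraries, 6 groups of 3. The authors deposited 1 table of FPKM values per gene and library, and the unit was read from its values. Per the submitters' processing notes, Bowtie 0.12.2 and the mm10 build were used, while the sources used here do not name the program behind the values. The table holds no counts, so limma 3.58.1 (R 4.3.3) was run on log2(FPKM + 1), a scale that understates the fold changes of low genes. One mean per group was fitted over 18 libraries (12 residual degrees of freedom, trend and robust options), genes with at least 1 FPKM in 3 of the 6 compared libraries were tested, and p-values were adjusted by Benjamini-Hochberg over all 11906. The difference to HS_control_FMT and to HS_AOS came from the same fit. The procedure was run on simulated data with independent noise in each library. Those data held no outlying library, no neighbouring tissue and no trend with length or GC content, so the run does not cover these. Genes named are the 12 higher and 12 lower with the largest fold change among those that passed without overlap and with a mean of at least 2 FPKM (predicted genes left out), 5 each way for the other differences, and in each list those that passed or up to 4 with the smallest p. The members and the 42 gene lists were chosen with earlier results of these data known. Positions and promoters are from RefSeq (GRCm38.p6), and transcript length and GC content from the longest transcript of the annotation, found for 99% of tested genes. Errors are standard errors for differences and SD for levels.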

Additional observations from a re-analysis of the deposited data

Results flagged for a closer look

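Only genes named by the rule and given in this text were searched here, and some of them were named for their difference between the transplants. In 6 of them every HS_AOS_FMT library and every HS_control_FMT library lay on opposite sides of all HS libraries, and the difference between the transplants passed. The count does not extend to all tested genes. The differences of HS_AOS_FMT minus HS_control_FMT on the log2 scale were -2.23 for Hmox1, -2.23 for Sdf2l1, -2.02 for Creld2, 1.17 for Slc6a19, 1.10 for Afap1l2 and 0.50 for Nr3c1. Of these, Hmox1 also passed against HS. The other 5 did not pass against HS. The groups of 3 are too small for a check of single outlying libraries.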

How the results depend on the processing

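Against HS the count of 129 was 37 with a replicate block, 215 with quantile normalization, 1829 with array weights (whose estimation stopped before converging), 51 without a filter, 215 with at least 5 FPKM, 84 with the compared groups alone, 641 without control 3, 1 without the libraries rich in adrenal markers, 18 with the length and GC trend removed, 11 with that and the replicate block, and 6 with a log2 change of at least 1. Leaving out 1 library gave 0 to 96. Against HS_control_FMT the count of 493 was 283 with the replicate block, 280 with quantile normalization, 2433 with array weights, 211 with the groups alone, 1144 without control 3, 231 without the adrenal-rich libraries, 332 with the block and the trend removed, and 37 at a log2 change of at least 1, and leaving out 1 library gave 64 to 266. Against HS_AOS the count of 0 was 2 with quantile normalization, 60 with array weights, 3 with the groups alone, 2 without control 3, 1 without the adrenal-rich libraries and 1 with the trend removed. In their deviations from the group means, same-numbered libraries of HS and HS_AOS_FMT correlated at 0.308, -0.193 and 0.124. HS 3 correlated at 0.44 with HS_AOS_FMT 2 and at -0.486 with HS_AOS_FMT 1. So few values cannot decide whether same-numbered libraries are paired. Direction turned in 4 values that did not pass: Cry1 to 0.038 without HS 3 (-0.30 to 0.038 over the left-out libraries), Fth1 to 0.29 with quantile normalization, Cyp4a10 to 0.12 without HS 1 (-1.13 to 0.12 over the left-out libraries), and Hspb1 against HS to 0.10 without the adrenal-rich libraries. The cause was not tested. Depth is unknown, so counting error at low levels cannot be given.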
